A study of Rattus norvegicus with 59 samples.

Results

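Transcripts of 9 genes whose enzymes remove superoxide and peroxides (Sod1, Sod2, Cat, Gpx1, Gpx3, Gpx4, Prdx1, Prdx5 and Prdx6) were followed in rat liver after acute exposure to cadmium or chromium. They were found by gene symbol in the array annotation, among 14217 genes with a probe set of 1 symbol. A probe set is a group of short probes that reads 1 transcript. Of the 9 genes, 8 had a probe set of their own, and all 8 passed the filter on dim probe sets for both metals. Prdx1 was read only by a probe set that it shares with Prdx1l1, which is given below as the shared Prdx1/Prdx1l1 probe set and stands outside the counts.

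The livers came from male Sprague-Dawley rats given 1 intraperitoneal injection and killed 1, 3 or 7 days later, and RNA of each liver was read on an Affymetrix rat genome expression array. The cadmium (Cd) rats received CdCl2 at the medium dose of 1.25 mg/kg, the chromium (Cr) rats received Na2Cr2O7 at a dose labelled as 20 mg/kg (high), and the controls of each metal received sterile saline. The methods name another Cr dose in 1 place, so the Cr dose carries that doubt. No age was given. Each group held 5 livers, except that 4 livers remained in the Cd group of day 1, because the authors left out a liver that grouped with the controls and had taken up no Cd. That choice rested in part on the expression values, and the spread and the changes of that group are those of the livers kept. In all there were 59 arrays, 29 for Cd and 30 for Cr, with array medians between 5.38 and 5.46 on the log2 scale. The lowest correlation between arrays of 1 group was 0.982. The values are log2 signals, so that a change of 1 is a doubling. A probe set was called when limma's adjusted p was 0.05 or less, with Benjamini-Hochberg adjustment over 15521 probe sets, and p-values measure the spread between livers.

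Superoxide is a by-product of respiration and of several oxidases. Superoxide dismutases turn it into hydrogen peroxide, Sod1 with copper and zinc mainly in the cytosol and Sod2 with manganese in the mitochondria. Catalase (Cat) breaks down hydrogen peroxide in peroxisomes, glutathione peroxidases such as Gpx1, Gpx3 and Gpx4 reduce peroxides with glutathione at a selenocysteine, and peroxiredoxins (Prdx) reduce them at a cysteine.

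The promoters of 3 members whose transcripts moved on day 1 are shown, since the array gives no sequence and these are the genes that the results turn on. Each is the stretch of 250 bases before the transcription start in RefSeq (build GRCr8), written 5′ to 3′ along the gene. Capitals mark every match, on either strand, to 1 of 6 motifs: the antioxidant response element core (TGACNNNGC), the kB motif, the GC box (GGGCGG), the STAT motif (TTCNNNGAA), the CCAAT box (CCAAT) and the TATA box (TATAAA). Sod2 lies on the minus strand at chr1:50050169-50050418, Cat on the minus strand at chr3:110329527-110329776, and Gpx1 on the plus strand at chr8:117905212-117905461.
Sod2: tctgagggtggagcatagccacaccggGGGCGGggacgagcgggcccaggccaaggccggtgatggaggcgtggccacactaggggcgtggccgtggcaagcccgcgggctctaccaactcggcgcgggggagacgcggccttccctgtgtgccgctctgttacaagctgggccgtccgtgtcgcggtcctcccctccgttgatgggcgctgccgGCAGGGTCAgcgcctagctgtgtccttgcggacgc
Cat: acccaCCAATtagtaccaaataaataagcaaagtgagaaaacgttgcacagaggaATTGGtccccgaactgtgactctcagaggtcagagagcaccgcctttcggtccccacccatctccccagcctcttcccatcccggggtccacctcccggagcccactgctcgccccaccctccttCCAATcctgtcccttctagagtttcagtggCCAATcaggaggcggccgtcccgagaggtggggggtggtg
Gpx1: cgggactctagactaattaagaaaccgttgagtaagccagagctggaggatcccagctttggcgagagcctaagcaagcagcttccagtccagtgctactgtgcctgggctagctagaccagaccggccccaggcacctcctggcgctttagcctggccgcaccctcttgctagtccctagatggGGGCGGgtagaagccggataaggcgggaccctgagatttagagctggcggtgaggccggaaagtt
The Sod2 stretch held 1 GC box and 1 match to the antioxidant response element core, read on the opposite strand, and its GC content of 71.6% was the highest of the 3. The Cat stretch held 4 CCAAT boxes and no other match, and the Gpx1 stretch held 1 GC box. Over all 33469 rat promoters of this length, 10.1% held the antioxidant response element core, 3.54% the kB motif, 30.5% the GC box, 7.67% the STAT motif, 34.0% the CCAAT box and 12.9% the TATA box. These are matches of letters, and binding was not measured. RefSeq promoters were matched for 8 of the 9 members, all but Prdx6.

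Most of these transcripts gave bright signals in liver. The mean signal over the 59 arrays lay above that of 96.4% or more of all probe sets for every member but Gpx3, whose probe set lay above 65.8%. Gpx3, the plasma glutathione peroxidase, was also the most variable member, with an SD of 0.30 among the 15 Cd control livers and 0.20 among the 15 Cr control livers. Prdx5 followed with 0.21 and 0.14, and no other member exceeded 0.12. Control livers of days 1, 3 and 7 did not pass the test of a difference between days for any member after either metal (0 of 8 by limma's F-test at an adjusted p of 0.05 or less, where 0.464% of all probe sets passed for Cd and 0.831% for Cr). At an unadjusted p of 0.05 or less the counts were also 0 of 8, where 8.67% and 9.81% of probe sets passed.

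**Figure D1:**
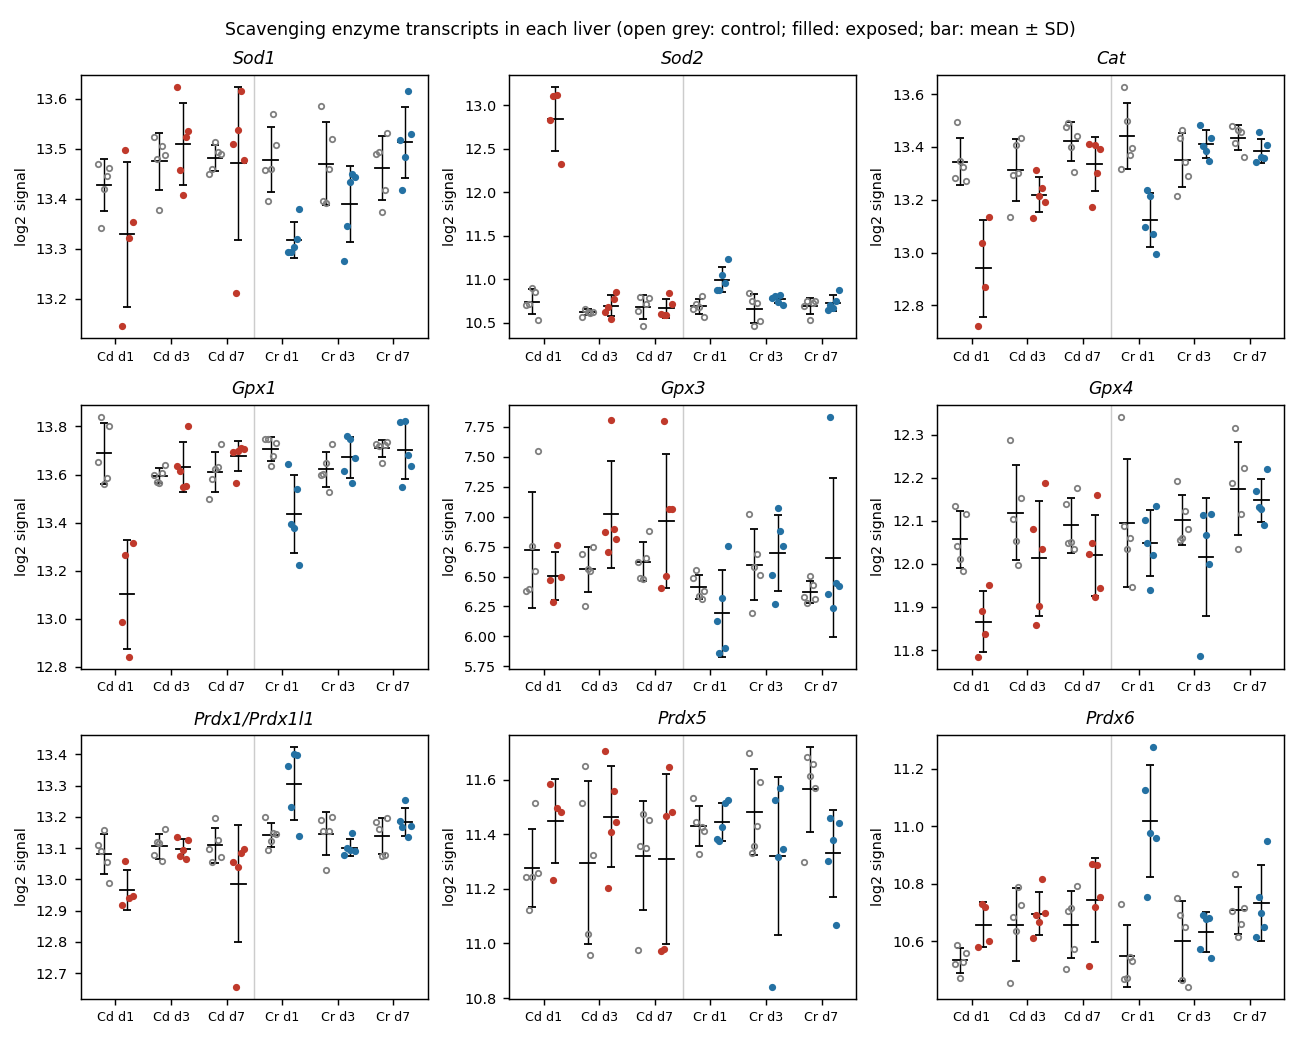
Log2 signal (vertical axis, own scale in each panel) of the 9 members in each of 59 livers, by metal and day (d1, d3, d7), with controls as open grey circles, exposed livers filled in red (Cd) or blue (Cr), and bars for the mean ± SD. Sod2 after Cd on day 1 stands apart, at 12.32 to 13.12 against 10.53 to 10.90 in the controls, while Cat and Gpx1 lie low on day 1 after both metals.

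Members were called on day 1 and not on days 3 or 7. After Cd, 4 of 8 members were called on day 1, where 23.4% of all probe sets tested were called (12.9% higher and 10.5% lower): Sod2 rose, and Cat, Gpx1 and Gpx4 fell. After Cr, 5 of 8 were called on day 1, where 45.7% of all probe sets were called (27.9% higher and 17.8% lower): Sod2 and Prdx6 rose, and Sod1, Cat and Gpx1 fell. The median change over the 8 members was -0.14 after Cd and -0.10 after Cr, against 0.01 and 0.04 over all probe sets tested. With so many probe sets called on day 1, a count of 5 of 8 after Cr stands close to the share of all probe sets. Under the second rule, a fold change of at least 1.8 with an adjusted p of 0.05 or less, 1 member (Sod2) was called after Cd, where 3.86% of all probe sets were, and 0 after Cr, where 4.86% were. Exposed and control livers did not overlap for 4 members after Cd and 4 after Cr, where groups did not overlap for 17.7% and 20.6% of all probe sets.

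Sod2, the mitochondrial superoxide dismutase, gave the largest change of any member. The control livers of Cd day 1 stood at 10.70, 10.72, 10.90, 10.86 and 10.53, and the exposed livers (numbered 1, 2, 4 and 5) at 12.83, 13.10, 13.12 and 12.32. Every exposed liver lay above every control liver, by more than the whole range of either group. The change was 2.10 on the log2 scale (SE 0.11, limma adjusted p = 4.56e-13), a fold change of 4.28, and leaving out each liver in turn gave 2.01 to 2.27. On day 3 the exposed livers stood at 10.62, 10.68, 10.54, 10.77 and 10.85, against 10.57 to 10.66 in their controls, which overlap, and the change was 0.07 (SE 0.11, adjusted p = 0.887). On day 7 it was -0.01 (SE 0.11, adjusted p = 0.990). The day 1 change exceeded the day 3 change by 2.03 (SE 0.16, adjusted p = 2.86e-09).

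After Cr, the Sod2 signal moved far less. Control livers of day 1 stood at 10.66, 10.72, 10.68, 10.81 and 10.57, and exposed livers at 10.88, 10.87, 11.05, 10.95 and 11.23. The groups did not overlap, and the change was 0.31 (SE 0.07, adjusted p = 0.00122), or 1.24-fold. The rise after Cd was greater than that after Cr by 1.79 (SE 0.13, adjusted p = 1.51e-14). On days 3 and 7 after Cr the changes were 0.11 and 0.04 (SE 0.07 each, adjusted p = 0.783 and 0.915).

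A second probe set, named Sod2 in the study's tables and not in the annotation used here, read the Cd rise alike and the Cr change differently. The name comes from a list of probe sets that had passed the study's thresholds after Cd on day 1, so its values are a description. After Cd on day 1 its controls stood at 7.77, 8.20, 7.88, 7.98 and 7.75 and its exposed livers at 9.71, 10.38, 9.89 and 10.04, again with no overlap, and the change was 2.09 (SE 0.11). After Cr on day 1 its controls stood at 7.64, 8.10, 7.83, 8.19 and 8.02 and its exposed livers at 7.58, 7.54, 7.68, 7.83 and 8.01, which overlap. Its change there was -0.23 (SE 0.11, adjusted p = 0.0934), opposite in sign to the rise read by the first probe set. After Cr the first probe set thus gave a called rise and the second a change that was not called. That the second reads Sod2 could not be checked in the annotation.

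**Figure D2:**
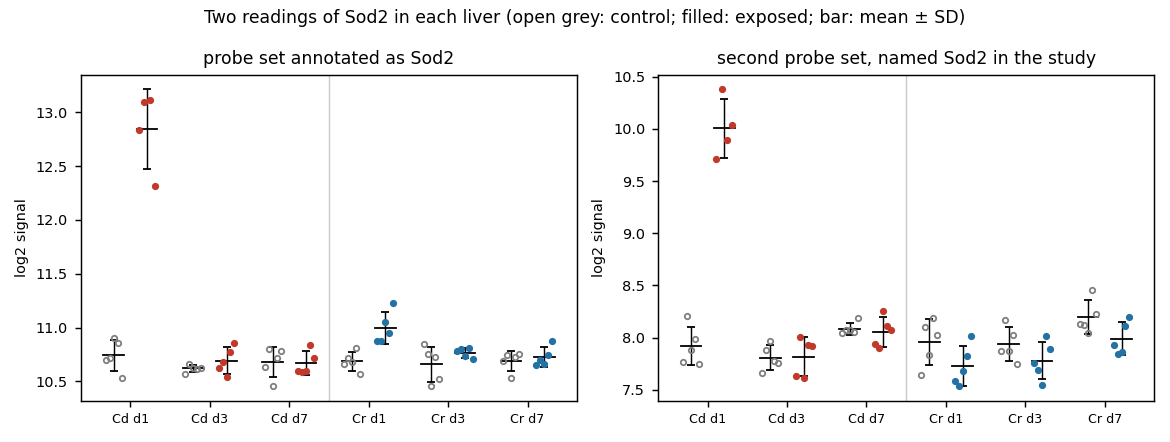
Log2 signal (vertical axes, own scale in each panel) of the 2 probe sets read as Sod2 in each liver, by metal and day, with controls as open grey circles, exposed livers filled and bars for the mean ± SD. Both panels show the Cd rise on day 1 (2.10 and 2.09). On day 1 after Cr they differ in sign (0.31, called, and -0.23, not called).

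Cell type markers also moved in the same livers. Beside their counts on day 1 stand the 23.4% of all probe sets called after Cd (12.9% higher and 10.5% lower). After Cr 45.7% were called (27.9% higher and 17.8% lower). On day 1 after Cd all 8 Kupffer cell and macrophage markers tested fell, with a median change of -3.49, and their summed linear signal was 4099 to 5707 in control livers against 294, 356, 250 and 2182 in exposed livers 1, 2, 4 and 5. Exposed liver 5, with the most macrophage signal, had the lowest signal of the 4 on the first Sod2 probe set (12.32) and the second highest on the other (10.04). Both neutrophil markers tested, S100a8 and S100a9, rose by 3.63 and 3.64, and the summed signal of 5 neutrophil markers was 87.0 to 172 in controls against 727 to 2435. The others in that sum, Csf3r, Cxcr2 and Mmp8, were too dim to be tested. S100a8 passed the filter on dim probe sets for Cd and not for Cr. That filter used the exposed livers too, so the S100a8 rise is a description. The authors state that S100a8 and S100a9 can be induced outside neutrophils too. Of 10 hepatocyte markers 6 fell after Cd and 0 rose, with summed signals of 133366 to 141046 in controls and 117302 to 128814 in exposed livers. After Cr on day 1, 4 hepatocyte markers fell and 2 rose (summed signals of 137233 to 143426 in controls and 128752 to 137204 in exposed livers), S100a9 rose by 1.34, and 1 of 8 macrophage markers (Cd163) rose. Of 5 endothelial markers 2 were called after each metal, both higher, and after Cr that count stands close to the share of all probe sets called. Among stellate cell markers 0 of 5 were called after Cd and 1 of 4 (Lrat, which fell) after Cr, and 0 of 3 red cell markers were called after either. No lymphocyte marker was bright enough to be tested. In whole liver, fewer cells of a type and less RNA per cell cannot be told apart, and the part of these shifts in the members' changes was not tested.

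Catalase, the peroxisomal enzyme, fell by a like amount after both metals. On day 1 the Cd controls stood at 13.28, 13.50, 13.35, 13.32 and 13.27, and the exposed livers at 12.72, 13.04, 12.87 and 13.13. The Cr controls of that day stood at 13.32, 13.63, 13.50, 13.37 and 13.40, and the exposed livers at 13.10, 13.24, 13.21, 13.07 and 12.99. In both series every exposed liver lay below every control liver. The change was -0.40 after Cd (SE 0.08, adjusted p = 0.000266) and -0.32 after Cr (SE 0.06, adjusted p = 0.000105), which is 24.5% and 19.9% less signal. The difference between the metals was -0.08, with a 95% interval from -0.27 to 0.10 (adjusted p = 0.548), so a difference of up to that size in either direction cannot be told from none. On day 3 the changes were -0.09 after Cd and 0.06 after Cr. The difference between day 1 and day 3 passed the test after Cr (-0.38, SE 0.09, adjusted p = 0.00207) and not after Cd (-0.31, SE 0.10, adjusted p = 0.0553).

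Gpx1, the main cytosolic glutathione peroxidase of liver, fell more after Cd than after Cr. Its Cd controls of day 1 stood at 13.65, 13.84, 13.56, 13.58 and 13.80, and the exposed livers at 12.99, 13.27, 12.84 and 13.32, all below the controls. Its Cr controls stood at 13.75, 13.75, 13.63, 13.68 and 13.73, and the exposed livers at 13.64, 13.39, 13.38, 13.54 and 13.22, where exposed liver 1 lay within the range of the controls. The change was -0.58 after Cd (SE 0.08, adjusted p = 4.92e-06) and -0.27 after Cr (SE 0.07, adjusted p = 0.00147). The fall was deeper after Cd by 0.31 (a difference of -0.31, SE 0.10, adjusted p = 0.0189). On day 3 the changes were 0.04 and 0.05 and were not called, and the day 1 change differed from that of day 3 by -0.62 after Cd (SE 0.11, adjusted p = 0.000392) and by -0.32 after Cr (SE 0.09, adjusted p = 0.0129).

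Gpx4, which reduces lipid peroxides in membranes, was called after Cd on day 1 with a small change whose adjusted p lay near the threshold. Controls stood at 12.13, 12.04, 12.01, 11.98 and 12.12 and exposed livers at 11.79, 11.89, 11.84 and 11.95, without overlap. The change was -0.19 (SE 0.07, adjusted p = 0.0434). Its other probe set, far dimmer at group means of 6.37 (controls) and 6.32 (exposed), gave -0.04 (SE 0.11, adjusted p = 0.810). The call was lost when the mean of both was taken with equal weight (-0.12, adjusted p = 0.221). It was also lost in 6 of the 9 fits that leave out 1 liver: control 1, 2 or 5, or exposed 1, 2 or 4 (changes of -0.20 to -0.16, adjusted p = 0.0595 to 0.138). After Cr the change was -0.05 (SE 0.07, adjusted p = 0.614).

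Sod1, the copper and zinc enzyme, was called after Cr. The Cr controls of day 1 stood at 13.46, 13.40, 13.46, 13.57 and 13.51 and the exposed livers at 13.29, 13.29, 13.30, 13.32 and 13.38, all below the controls by a narrow margin. The change was -0.16 (SE 0.05, adjusted p = 0.0141), and it lost its call when the arrays were quantile normalized once more (-0.10, adjusted p = 0.0999). After Cd it was -0.10 (SE 0.07, adjusted p = 0.338). The metals differed by 0.06, with a 95% interval from -0.10 to 0.23, so the call after Cr is not shown to set the metals apart.

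Prdx6, a peroxiredoxin with a single catalytic cysteine, rose after Cr. Controls of day 1 stood at 10.73, 10.47, 10.47, 10.55 and 10.53, and exposed livers at 11.13, 10.75, 10.98, 11.28 and 10.96. The lowest exposed liver lay just above the highest control, and the change was 0.47 (SE 0.08, adjusted p = 4.43e-05), or 1.38-fold. After Cd the change was 0.12 (SE 0.07, adjusted p = 0.246), and the difference between the metals passed the test (-0.35, SE 0.11, adjusted p = 0.0168). On day 3 after Cr the exposed livers stood at 10.54 to 10.69, and the day 1 change exceeded that of day 3 by 0.44 (SE 0.12, adjusted p = 0.00740).

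The shared Prdx1/Prdx1l1 probe set also rose after Cr on day 1. Its controls stood at 13.20, 13.10, 13.12, 13.15 and 13.14, and its exposed livers at 13.36, 13.23, 13.40, 13.40 and 13.14, so that exposed liver 5 lay among the controls. The change was 0.16 (SE 0.05, adjusted p = 0.0103) after Cr and -0.11 (SE 0.07, adjusted p = 0.233) after Cd, a difference of -0.28 (SE 0.08, adjusted p = 0.00727). Which of the 2 genes gave this signal cannot be told from the probe set.

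Across the members, 3 of 8 differed between the metals on day 1 (Sod2, Gpx1 and Prdx6), where 24.8% of all probe sets differed. The count of members that differed was 2 to 3 when each liver was left out in turn. None differed on day 3, where 0.058% of probe sets did, or on day 7, where 0.722% did (0 of 8 by limma at an adjusted p of 0.05 or less on both days, and 0 of 8 at an unadjusted p of 0.05 or less, where 8.32% and 11.8% of probe sets passed). Between day 1 and day 3, 2 of 8 differed after Cd (Sod2 and Gpx1), where 11.2% of probe sets did, and 3 of 8 after Cr (Cat, Gpx1 and Prdx6), where 25.2% did. The metals were given at unlike dose levels (Cd medium, Cr labelled high), each with its own controls. In any difference between the metals, metal, dose level and series therefore cannot be told apart.

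**Figure D3:**
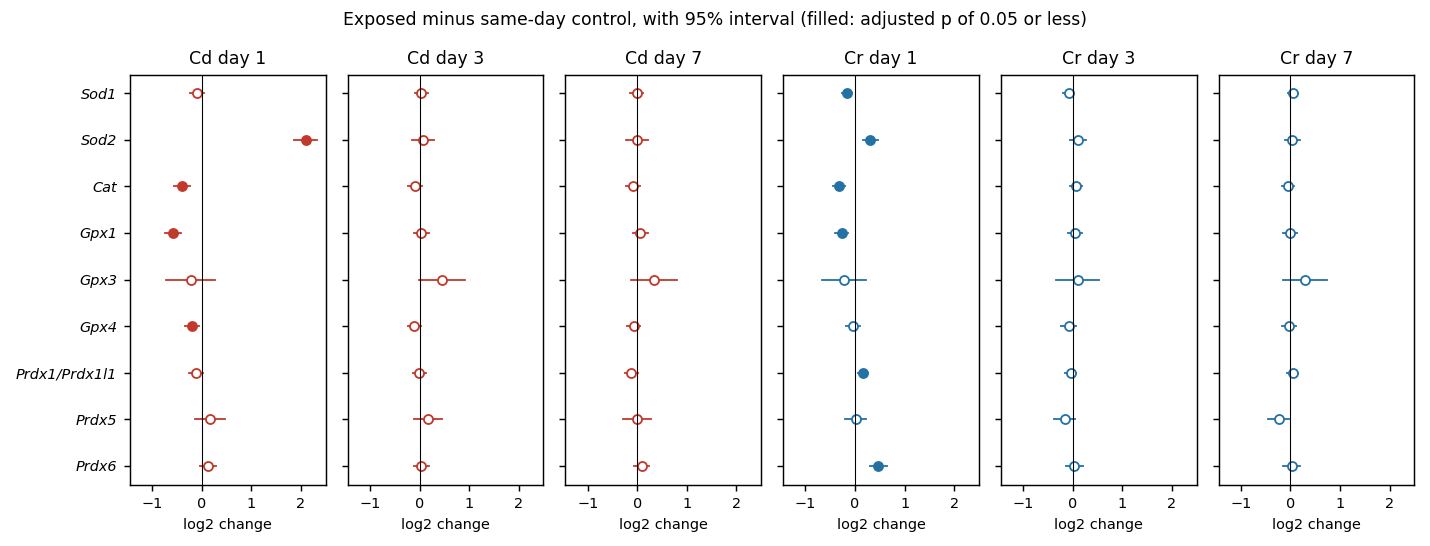
Log2 change (horizontal axis) of each member, exposed minus same-day control, with its 95% interval, for Cd and Cr on days 1, 3 and 7, filled where limma's adjusted p was 0.05 or less. The filled points lie on day 1 in both metals, led by Sod2 after Cd at 2.10, and Gpx3 has the widest intervals.

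On days 3 and 7 no member was called. After Cd the count was 0 of 8 on day 3, where 1.35% of probe sets were called, and 0 of 8 on day 7, where 0.0258% were, and 0 of 8 had an unadjusted p of 0.05 or less on either day, where 12% and 8.21% of probe sets did. After Cr it was 0 of 8 on day 3, where 0% of probe sets were called, and 0 of 8 on day 7, where 0.232% were. At an unadjusted p of 0.05 or less the Cr counts were 0 of 8 on day 3, where 8.45% of probe sets passed, and 1 of 8 on day 7, where 10.8% did. That member was Prdx5, a peroxiredoxin of mitochondria and peroxisomes. Its Cr day 7 controls stood at 11.30, 11.68, 11.61, 11.66 and 11.57 and its exposed livers at 11.30, 11.46, 11.38, 11.07 and 11.44, which overlap, and the change was -0.23 (SE 0.10, unadjusted p = 0.0328, adjusted p = 0.405).

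Gpx3 was set apart by single livers. After Cd on day 3 the exposed livers stood at 6.87, 6.70, 7.81, 6.90 and 6.82, and on day 7 at 6.40, 7.80, 6.50, 7.06 and 7.06. After Cr on day 7 they stood at 6.35, 7.84, 6.23, 6.45 and 6.42, and among the Cd controls of day 1 (6.38, 6.40, 6.76, 6.54 and 7.55) liver 5 also lay above the rest. One liver in each of these 4 groups was thus much higher than the others. The same 4 livers had the highest summed signal of 6 stellate cell markers in their groups, at 3497, 3224, 3436 and 2904 in that order. The changes in Gpx3 were 0.46 (SE 0.23, adjusted p = 0.431) and 0.34 (SE 0.23, adjusted p = 0.713) after Cd on days 3 and 7, and 0.29 (SE 0.21, adjusted p = 0.696) after Cr on day 7. The part of stellate cells in these values was not tested.

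**Figure D4:**
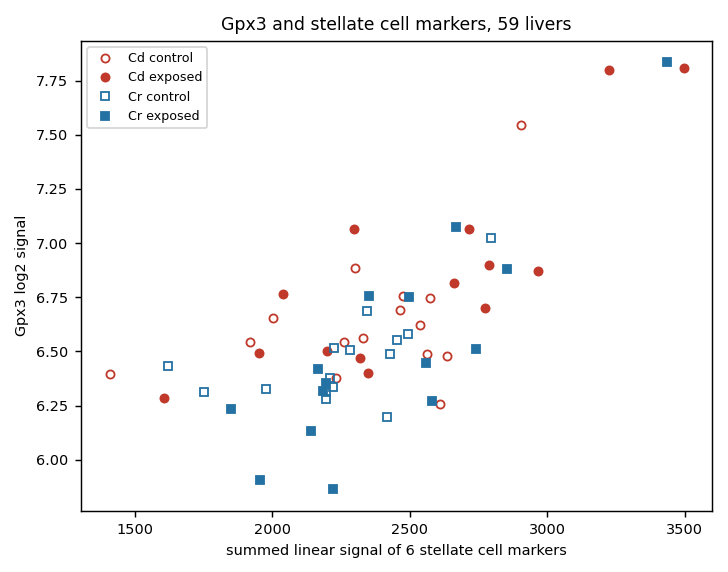
Gpx3 log2 signal (vertical axis) against the summed linear signal of 6 stellate cell markers (horizontal axis) in 59 livers, with Cd as red circles and Cr as blue squares, open for controls and filled for exposed livers. The 4 livers with the highest Gpx3 signals, 7.55 to 7.84, have summed marker signals of 2904 to 3497. Exposed liver 1 of Cd day 3 lies within that range, at 2967, with a Gpx3 signal of 6.87.

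The genes whose pattern over the 59 arrays was most like that of each member, each array taken minus the mean of its metal's controls, were ranked by Pearson's r among 9270 genes. The arrays share the treatment groups, so r is a description. For Sod2 they were Plpp5 (r = 0.890), Sec11c (0.878) and Dpagt1 (0.876). For Cat they were Cyp3a2 (0.807), Arhgef19 (0.805) and Pepd (0.805), and for Gpx1 they were Mgst3 (0.842), Gcsh (0.827) and Dpp4 (0.815). Gpx3 was most like the matrix genes Mmp2 (0.864), Mxra8 (0.862) and Col6a1 (0.858). Sod1 was most like Pex19 (0.741), Naxe (0.738) and Pon1 (0.716), and Prdx6 most like Psmd13 (0.770), Nudc (0.758) and Sft2d1 (0.749). Gpx4 was most like Ndufs7 (0.706), Smdt1 (0.676) and Tst (0.630), and Prdx5, with the lowest values, like Ehd1 (0.601), Natd1 (0.528) and LOC100910973 (0.503). The shared Prdx1/Prdx1l1 probe set was most like 3 genes of mitochondrial translation, Mrps11 (0.813), Mrps22 (0.783) and Tufm (0.770).

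Around these enzymes stand genes that supply, feed or regulate them, read in 7 lists of 77 genes, of which 73 had a probe set of 1 symbol and 67 were tested. On day 1 after Cd 27 of the 67 were called (8 rose and 19 fell), beside 23.4% of all probe sets, with a median change of -0.09. After Cr 41 were called (15 rose and 26 fell), beside 45.7% of all probe sets, with a median of -0.11. After Cd on day 3 Cyba alone of the 67 was called (limma adjusted p), a share close to the 1.35% of all probe sets. At an unadjusted p of 0.05 or less 6 passed that day, beside 12% of all probe sets. On day 7 after Cd the count was 0 (limma adjusted p, with 10 at an unadjusted p of 0.05 or less, beside 8.21% of all probe sets). After Cr it was 0 on day 3 and 0 on day 7 (with 7 and 5 at an unadjusted p of 0.05 or less, beside 8.45% and 10.8% of all probe sets).

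Thiol systems, which return oxidised peroxiredoxins and glutathione to use, were called for 11 of 13 genes after Cr (5 rose and 6 fell), beside 45.7% of all probe sets, and for 3 of 13 after Cd (0 rose and 3 fell), beside 23.4%. Srxn1, the sulfiredoxin that repairs overoxidised peroxiredoxins, rose by 1.33 after Cr (SE 0.32, adjusted p = 0.00122) and gave -0.06 after Cd (adjusted p = 0.856). Msra, a methionine sulfoxide reductase, fell after both (-0.62 for Cd, -0.69 for Cr), as did the glutaredoxin Glrx (-0.49 each), and the mitochondrial thioredoxin reductase Txnrd2 fell after Cr (-0.67). Named after their values were seen, Txn1 and Txnrd1, the cytosolic thioredoxin and its reductase, rose after Cr (0.44 and 0.36). Of the 6 other superoxide and peroxide enzymes tested, 0 were called after Cd and 2 after Cr, where Prdx2 rose (0.28) and Prdx4, of the endoplasmic reticulum, fell (-0.20).

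Of 12 enzymes tested that make superoxide or hydrogen peroxide, 9 were called on day 1 after Cd (2 rose and 7 fell, median -0.39), beside 23.4% of all probe sets, and 10 after Cr (4 rose and 6 fell, median -0.28), beside 45.7%. The NADPH oxidase Nox4 fell most (-1.28 after Cd, SE 0.39, adjusted p = 0.0176, and -1.65 after Cr, SE 0.30, adjusted p = 5.66e-05). The D-amino acid oxidase Dao fell after both (-0.59 and -0.73), and the peroxisomal oxidase Acox2 fell after Cr (-0.77). Cyba, a subunit of the phagocyte oxidase, rose after Cr on day 1 (0.76) and after Cd on day 3 (0.73, SE 0.14, adjusted p = 0.0136). The Cd day 3 call was lost without exposed liver 3 or exposed liver 4. On that day the neutrophil markers S100a8 and S100a9 rose by 1.92 and 2.17. Only these 2 of 5 neutrophil markers were bright enough to be tested, S100a8 by a filter that used the exposed livers too. The summed signal of the 5 was 81.2 to 160.0 in controls and 152 to 730.1 in exposed livers. The part of neutrophils in the Cyba change was not tested. Of 10 genes of the peroxisome, the organelle that holds catalase, 3 fell after Cd and 6 after Cr, and 0 rose after either. Of all probe sets, 10.5% were called lower after Cd and 17.8% after Cr (23.4% and 45.7% in either direction). Among them were the fatty acid transporter Abcd3 (-0.48 and -0.66), the division factor Pex11a (-0.61 and -0.50) and, after Cr, Pex19 (-0.65) and Pex7 (-0.34), which serve the import of peroxisomal proteins.

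Of 9 selenoprotein and selenium genes, 3 rose and 3 fell after Cd, beside 23.4% of all probe sets called, and 2 rose and 2 fell after Cr, a share close to the 45.7% of all probe sets. Scly, the selenocysteine lyase, fell after both (-0.96 and -0.47), while the selenoproteins of the endoplasmic reticulum Selenos (0.71) and Selenof (0.48) rose after Cd. Of 8 genes of metal cofactor supply, 2 rose and 2 fell after Cd and 0 rose and 3 fell after Cr, beside the same shares. The metal importers Slc39a14 (0.92, SE 0.09, adjusted p = 6.31e-08) and Slc11a2 (0.77) rose after Cd, Slc39a8 fell after both (-0.48 and -0.62), and Slc30a10, a manganese exporter, fell after Cr (-0.45).

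Of 9 regulators, 1 rose and 1 fell after Cd, and 3 rose and 2 fell after Cr, counts close to the 23.4% and 45.7% of all probe sets called. Nfe2l2, which encodes the factor NRF2 of the antioxidant response, fell after Cd by 0.70 (SE 0.15, adjusted p = 0.000783) and rose after Cr by 0.56 (SE 0.15, adjusted p = 0.00351). The difference between the metals was -1.26 (SE 0.21, adjusted p = 3.1e-05). Nfkb1 rose after both (0.55 and 0.41), Rela rose after Cr (0.32), and Mafg fell after Cr (-0.25). In all, 20 supporting genes were called after both metals on day 1. The share of all probe sets called after both was not counted, nor the share of those that moved the same way. The 20 and their split by direction are thus a description. Of the 20, 16 moved the same way (13 fell and 3 rose) and 4 moved oppositely. Those 4 were Nfe2l2, Pstk, a kinase of selenocysteine synthesis (-0.30 after Cd and 0.39 after Cr), and, named after their values were seen, the glutathione reductase Gsr (-0.40 and 0.40) and the phagocyte oxidase subunit Cybb (-0.58 and 0.45). Cybb is also a gene of macrophages, whose markers fell after Cd on day 1. The part of macrophages in the Cybb change was not tested.

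**Figure D5:**
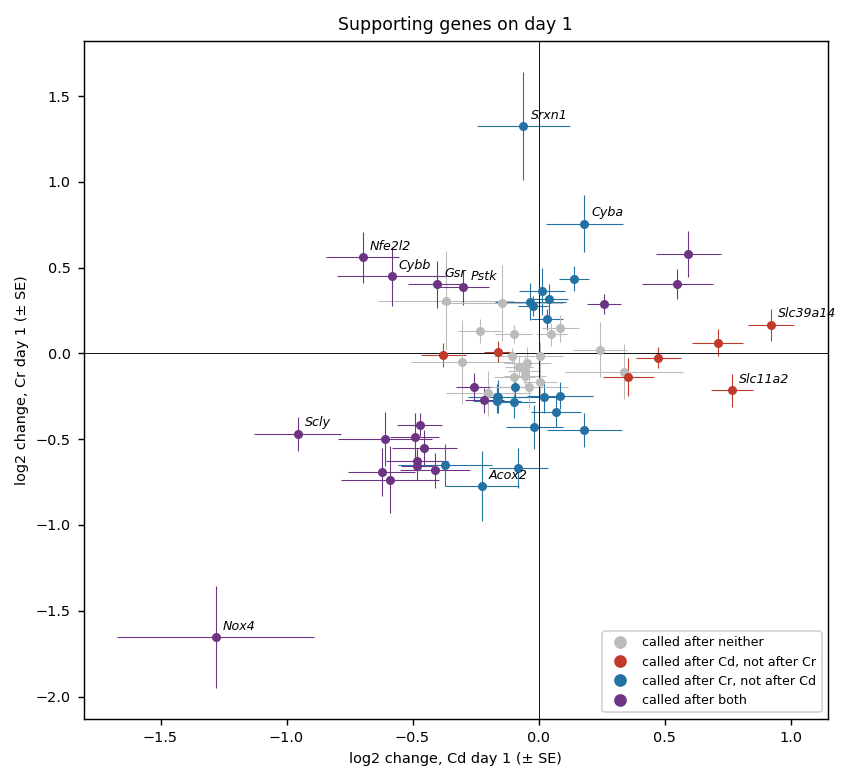
Log2 change on day 1 of the 67 supporting genes after Cd (horizontal axis) and after Cr (vertical axis), each with its SE, coloured by whether limma's adjusted p was 0.05 or less after neither metal, 1 metal or both. The upper left holds Nfe2l2, Cybb, Gsr and Pstk, which fell after Cd and rose after Cr, and Nox4 lies at the lower left (-1.28 and -1.65).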

How the data were processed

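Rat liver RNA was read on 59 arrays. Log2 signals were used as deposited, less 57 array controls. The authors had obtained these log2 signals with the RMA method (background adjustment, normalization and probe set summary) in Partek Genomic Suite 6.6. Of 31042 probe sets 20826 have 1 gene symbol, 436 several and 9780 none in the platform annotation. A gene was read by its brightest probe set with 1 symbol.

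For each metal the brightest 50% of probe sets by mean signal (15521) were fitted with limma 3.58.1 in R 4.3.3, 6 groups a metal, and each exposed group was compared with the controls of its day. The authors pooled the controls over days. Here that is an alternative, since the genes are described against same-day controls. Differences between metals came from 1 fit of 12 groups. Figures and tables used Python 3.11.15.

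All members are named. Of each supporting list, up to 4 genes with the largest change among those called are named, or the 2 largest where none was, and 3 genes most like each member. The members and lists were chosen with earlier results of these data known. The test was checked on simulated data. Replicate numbers were checked as pairs and not used as a block, since not every pair correlated above 0.1. That rule does not show that livers of 1 number are unrelated, so the block was also run as an alternative. The block joined livers of 1 number over all days of a metal, so it does not model the pairs within a day. The main p-values leave out any pairing. Alternatives were pooled controls, other filters, a second quantile normalization, a linear model without moderation, array weights, 1 fit of both metals, the mean over probe sets, the replicate number as a block, and leaving out each liver. The number of arrays limits the precision.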

Additional observations from a re-analysis of the deposited data

Results flagged for a closer look

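Single livers stood apart in 7 of 108 checks of a member in a group by Dixon's gap test (the gap to the nearest liver over the range of the group, at the 95% critical value), a level that by its definition flags about 1 in 20 groups by chance. Gpx3 was high in liver 3 of Cd day 3 (7.81, others 6.70 to 6.90) and in liver 2 of Cr day 7 (7.84, others 6.23 to 6.45). Liver 2 of Cd day 7 was low for Gpx1 (13.57, though the others spanned only 13.70 to 13.71) and for the shared Prdx1/Prdx1l1 probe set (12.66, others 13.04 to 13.10). Among controls, Gpx1 was low in liver 3 of Cr day 7 (13.65), the shared Prdx1/Prdx1l1 probe set in liver 3 of Cr day 3 (13.03), and Prdx5 in liver 1 of Cd day 7 (10.98).

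Effects differed between days or metals by a test of the difference (limma, adjusted p of 0.05 or less). Between day 1 and day 3 they differed by 2.03 for Sod2 and -0.62 for Gpx1 after Cd, and by -0.38 for Cat, -0.32 for Gpx1, 0.44 for Prdx6 and 0.21 for the shared Prdx1/Prdx1l1 probe set after Cr. On day 1 the Cd effect minus the Cr effect was 1.79 for Sod2, -0.31 for Gpx1, -0.35 for Prdx6 and -0.28 for the shared Prdx1/Prdx1l1 probe set. Of the supporting genes called in opposite directions, it was -1.26 for Nfe2l2, -1.03 for Cybb, -0.81 for Gsr and -0.68 for Pstk.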

How the results depend on the processing

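No called result changed direction under any alternative run; values called under neither setting were not compared for sign. Counts of called genes stayed within 1.5 times in 160 of 166 values from the other settings and in 242 of 246 that leave out 1 liver. The supporting genes called after Cd on day 3 went from 1 to 2 with array weights, with both metals in 1 fit, with the mean over probe sets, with pooled controls and with the replicate block, and ranged from 0 (without exposed liver 3 or 4) to 2 (without exposed liver 5) when 1 liver was left out. Those called after Cr on day 3 went from 0 to 1 with array weights, and ranged from 0 to 1 (1 without exposed liver 1). After Cd on day 1, 18 to 27 supporting genes were called, with 18 when exposed liver 1 was left out, and 3 to 4 members. Member calls were lost for Gpx4 after Cd on day 1 with array weights (-0.18, adjusted p = 0.0944), no filter (-0.19, adjusted p = 0.0795), a second quantile normalization (-0.13, adjusted p = 0.163) or the mean over probe sets (-0.12, adjusted p = 0.221), and for Sod1 after Cr on day 1 with a second quantile normalization (-0.10, adjusted p = 0.0999). The cause was not tested.

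With the replicate number as a block, 4 members were called after Cd and 5 after Cr on day 1, as without it. Since this block spans the days, it does not show what pairs within a day would give. The block moved the Cd day 3 supporting count to 2 and no other count by more than 1.5 times. The deviations of exposed and control livers correlated at a mean of 0.127 within a number and -0.0313 between numbers, over 29 pairs. Deviations from a group mean cancel within the group, so the value between numbers is largely set by the value within. Of the 29 pairs 17 exceeded 0.1. Of the 29 exposed livers 16 matched best with their own number, each having 5 control livers of its day to match.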
